A study of Caenorhabditis elegans with 2 samples.

Results

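Transcripts of 45 genes of DNA replication and the cell cycle were compared between an lsm-1 mutant and wild-type Caenorhabditis elegans. The 45 genes were taken by symbol: proteins that license and copy DNA, cyclins and their kinases, their inhibitors and the LIN-35 and E2F proteins, and mitotic kinases and checkpoint proteins. The rule that picks them uses symbols and no measured value, though the list was drawn up with earlier results of these data known. Of the 45, 44 were found among the 46135 genes of the deposited table, 41 by the symbol printed there and 3 by the gene identifier that RefSeq pairs with the symbol. No row could be matched to cdc-45. The 44 genes lie on chromosomes I (12 genes), II (11), III (9), IV (4), V (7) and X (1).

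The study measured total RNA, depleted of ribosomal RNA, in 2 libraries. One library came from animals carrying lsm-1(tm3585), a line backcrossed to N2 3 times, and the other from the wild-type strain N2. The description of the N2 sample reads "N2 back3". Both populations were collected as L3 larvae after 26 hours at 25 °C, counted from synchronised L1 animals. LSM-1 belongs to the cytoplasmic LSM ring, which binds the ends of deadenylated messenger RNAs and promotes removal of their cap. The label gives the allele only, and the lsm-1 transcript was present at 5.94 FPKM in the mutant library and 10.2 FPKM in N2, a difference that did not pass the test in the authors' deposited table (q = 0.457).

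In a dividing cell, origins of replication are bound by the origin recognition complex, and CDC-6 and CDT-1 load the MCM helicase there before S phase. GINS and CDC-45 then join the helicase, and the clamp PCN-1, its loader RFC and the single-strand binding protein RPA work at the fork. Cyclins with their kinases drive each step, CKI inhibitors and LIN-35 with E2F hold cells in G1, and Aurora and Polo kinases direct mitosis until FZY-1 and FZR-1 activate the anaphase-promoting complex. In the L3 larva the dividing cells are mainly those of the distal germ line, the seam, the somatic gonad, the vulval lineage and the sex myoblasts. Most other cells have stopped dividing.

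There was 1 library per genotype, so no difference below has a replicate check, and no p-value was computed. Levels are FPKM, fragments scaled by transcript length and library size. A difference is taken on the log2(FPKM + 1) scale, mutant minus N2, and is compressed for low genes. A gene was called measured at 1 FPKM or more in either library, which gave 14838 genes, and all 44 matched genes were among them. The size rule counts a difference of at least 1 in either direction, which is 2-fold on this scale. The median of measured genes was 0.24 higher in the mutant, a factor of 1.18, so a centred difference, which subtracts 0.24, is given beside the deposited one. Steps between low FPKM values put the depth near 8.58 M fragments for the mutant library and 7.02 M for N2. Between 6 and 384 fragments lay behind each value above 0 of the 39 cell cycle genes above 0 in both libraries, with medians of 69 in the mutant and 52 in N2. The 95% intervals of a ratio (exact binomial, on these estimated fragments) are approximate and cover counting error only. A value of exactly 0 need not be an absence of RNA, since genes of abundant muscle proteins such as unc-15 and unc-22 were also at 0 in both libraries. Such a gene is called listed at 0, and no fold is given for it.

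Levels of the 44 transcripts were low to moderate. In N2 the median was 4.30 FPKM, against 3.78 FPKM for all measured genes, and 24 of the 44 stood above that median. In the mutant library it was 4.69 FPKM against 4.55, and 22 of the 44 stood above. The most abundant transcripts in N2 were those of the sliding clamp pcn-1 at 18.8 FPKM and of rpa-2 at 17.8 FPKM. In the mutant these were again the highest, in the other order, at 22 FPKM for pcn-1 and 24 FPKM for rpa-2.

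**Figure D1:**
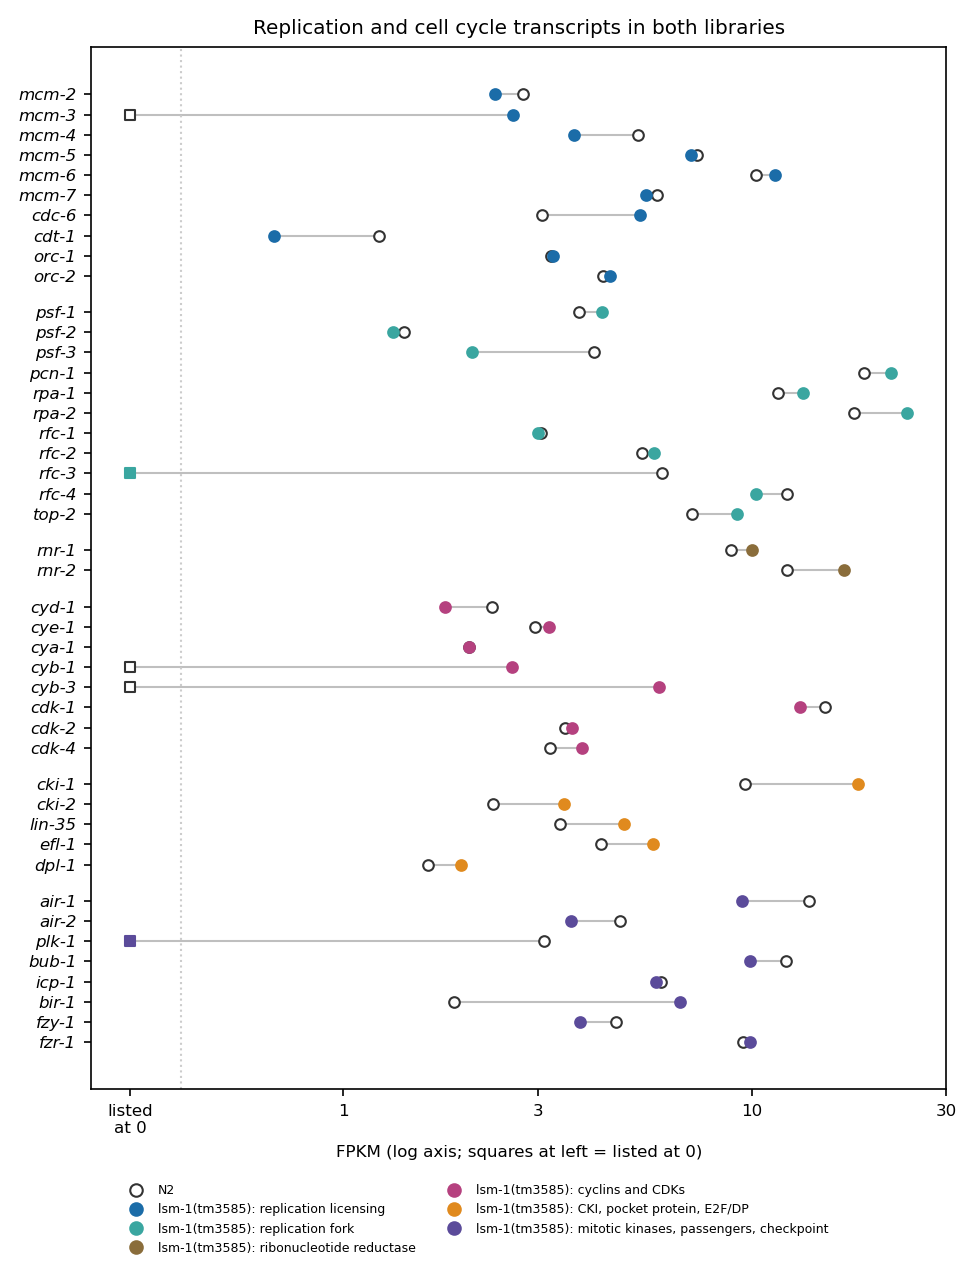
FPKM (log axis) of each of the 44 genes in the N2 library (open symbols) and the lsm-1(tm3585) library (filled symbols, coloured by role), joined by a line; squares at the left edge are values listed at 0. Most pairs lie close together, 5 genes are listed at 0 in 1 library, and cki-1 (18.3 against 9.62 FPKM) and bir-1 (6.67 against 1.87 FPKM) are the widest pairs in which the mutant is higher among genes above 0 in both.

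The licensing genes were at similar levels in both libraries. Of the 10 genes, 9 were above 0 in both libraries, and the differences of these 9 ran from -0.42 to 0.64 with none past the size rule. The median of the 10 was -0.01, or -0.25 after centring, and 8 of 10 were under the measured-gene median. None passed the test in the authors' deposited table.

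The 6 MCM proteins form 1 ring-shaped helicase, with a single copy of each. The transcript of mcm-2 was at 2.36 FPKM in the mutant and 2.75 in N2. That of mcm-4 was at 3.68 and 5.26 FPKM, the lowest difference of the licensing genes at -0.42 (ratio 0.699, interval 0.464 to 1.08). The level of mcm-5 was 7.11 and 7.33 FPKM. These 3 stood lower in the mutant library, each with an interval that holds 1. The level of mcm-7 was also lower, at 5.51 FPKM in the mutant and 5.87 in N2 (ratio 0.937, interval 0.714 to 1.24). That of mcm-6 was higher, at 11.4 FPKM in the mutant and 10.3 in N2. The transcript of mcm-3 was at 2.60 FPKM in the mutant and listed at 0 in N2. A further pair of FPKM columns from the same libraries gave 2.28 FPKM and 0 for it, and the authors' deposited table marks its test as failed. So 5 of the 6 subunits had ratios between 0.699 and 1.11, and the value of the other in N2 cannot be read as a level.

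The genes of the proteins that load this helicase differed in direction. The level of cdc-6, an ATPase that joins the origin complex, was 5.32 FPKM in the mutant and 3.07 in N2, the highest difference of the licensing genes above 0 in both libraries (0.64, ratio 1.73, interval 1.16 to 2.61). Its p-value in the authors' deposited table was 0.0996 and it did not pass. The level of cdt-1, the partner of CDC-6 in loading, was 0.678 FPKM in the mutant and 1.22 in N2 (ratio 0.554, interval 0.259 to 1.07), the lowest level of all 44 genes in either library among values above 0. Its ratio was the lowest of the licensing genes above 0 in both libraries, though its difference (-0.41), compressed at this level, was not. The origin subunits orc-1 (3.26 and 3.23 FPKM) and orc-2 (4.51 and 4.33 FPKM) differed by 0.01 and 0.05.

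At the replication fork, 11 of 12 genes were matched, with a median difference of 0.08, or -0.15 after centring, and 9 of 11 below the median of measured genes. GINS is a complex of 4 small proteins that joins the MCM ring, and 3 of them belong to the 45 genes. Their transcripts were the most thinly covered of the fork genes above 0 in both libraries. That of psf-1 was at 4.29 FPKM in the mutant and 3.77 in N2, from about 25 and 18 fragments. That of psf-2 was at 1.33 and 1.41 FPKM, from about 7 and 6 fragments, and its interval from 0.275 to 3.44 allows a wide range of ratios. The level of psf-3 was 2.07 FPKM in the mutant and 4.10 in N2, the lowest ratio of the 39 genes above 0 in both libraries (0.504), with an interval from 0.233 to 1.06 on about 13 and 21 fragments.

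The clamp gene and the smaller RPA gene were the most abundant fork transcripts in both libraries. The level of pcn-1 was 22 FPKM in the mutant and 18.8 in N2 (ratio 1.17, interval 0.930 to 1.47). RPA coats exposed single strands, and its large subunit rpa-1 was at 13.4 and 11.6 FPKM. The level of rpa-2 was 24 FPKM in the mutant and 17.8 in N2 (ratio 1.35, interval 1.07 to 1.71), the highest difference of the fork genes at 0.41. Topoisomerase II, which untangles the copied strands, had 9.21 FPKM in the mutant and 7.16 in N2 for top-2 (ratio 1.29, interval 1.09 to 1.52). The intervals of rpa-2 and top-2 lie above 1 but hold 1.23, the median ratio of all measured genes above 0 in both libraries.

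The clamp loader RFC opens PCN-1 around DNA. Its large subunit rfc-1 was at 2.99 FPKM in the mutant and 3.06 in N2, and rfc-2 was at 5.76 and 5.38 FPKM. The level of rfc-4 was 10.2 FPKM in the mutant and 12.2 in N2 (ratio 0.838, interval 0.630 to 1.13). The transcript of rfc-3 was at 6.04 FPKM in N2 and listed at 0 in the mutant. The further pair lists rfc-3 at 0 in both libraries, and the authors' deposited table gives it a fold change of 0 and a p-value of 1. The fork genes therefore hold 1 gene past the size rule, rfc-3, and that value rests on 1 pair of columns that the further pair does not repeat.

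Ribonucleotide reductase makes the deoxynucleotides used at the fork. The large subunit rnr-1 was at 10.01 FPKM in the mutant and 8.92 in N2 (ratio 1.12, interval 0.913 to 1.39). The small subunit rnr-2 was at 16.8 and 12.2 FPKM (ratio 1.38, interval 1.09 to 1.74). The authors' deposited table marks both tests as failed, and in the further pair rnr-1 is listed at 0 for mutant and N2 alike. The centred difference was -0.09 for rnr-1 and 0.20 for rnr-2.

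Among the cyclins and their kinases, the B-type cyclins were the only 2 of the 44 genes past the test in the authors' deposited table, and both are listed at 0 in N2. The level of cyb-1 was 2.58 FPKM in the mutant, from about 36 fragments (q = 0.000972 in the authors' deposited table), and the further pair lists it at 0 in both libraries. The level of cyb-3 was 5.93 FPKM in the mutant, from about 74 fragments (q = 6.49e-06 in the authors' deposited table), and the further pair gave 5.2 FPKM and 0. B-type cyclins bind CDK-1 at entry to mitosis, and the other 2 of them in the table, the near-identical cyb-2.1 (1.02 and 1.04 FPKM) and cyb-2.2 (1.21 and 1.34 FPKM), were at similar levels in both libraries, though reads of these 2 may be split between them. CDK-1, the kinase that these cyclins activate, had 13.1 FPKM in the mutant and 15.1 in N2 (ratio 0.871, interval 0.677 to 1.12). Neither 0 was read as a level in N2.

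The G1 and S phase cyclins and kinases were at similar levels in both libraries, with every interval holding 1. Cyclin D, which starts the cycle with CDK-4, was at 1.77 FPKM in the mutant and 2.32 in N2 for cyd-1 (ratio 0.764, interval 0.445 to 1.31), and the further pair gave 0 and 2.04 FPKM. The kinase gene cdk-4 was at 3.83 and 3.22 FPKM. Cyclin E and CDK-2 act at the entry to S phase, and cye-1 was at 3.19 and 2.94 FPKM while cdk-2 was at 3.63 and 3.48 FPKM. The A-type cyclin cya-1 was at 2.03 and 2.04 FPKM, a difference of 0.00. The median of the 8 cyclin and kinase genes was 0.07, or -0.17 after centring, and the 6 that were above 0 in both libraries were all under the measured-gene median.

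The 5 genes of the CKI inhibitors, LIN-35, EFL-1 and DPL-1 all had ratios above 1. Of these, cki-1 alone had an interval above 1.23, the median ratio of measured genes. This role group was the only one of more than 2 genes with a centred median above 0: the median difference of its 5 genes was 0.42, or 0.18 after centring, and 4 of 5 lay above the median of measured genes. CKI-1, a p27-like inhibitor of cyclin-dependent kinases that keeps larval cells in G1, had 18.3 FPKM in the mutant and 9.62 in N2 (difference 0.86, ratio 1.90, interval 1.37 to 2.64), from about 127 and 55 fragments. The p-value of cki-1 in the authors' deposited table was 0.0497 and its q was 0.352, so it was not called. Its neighbour on the same strand of chromosome II, cki-2, encodes a second inhibitor and was at 3.47 and 2.33 FPKM (ratio 1.49, interval 0.864 to 2.63). The further pair gave 16 and 8.45 FPKM for cki-1 and lists cki-2 at 0 in both libraries.

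LIN-35 is the single Rb-like pocket protein of the worm, and it represses genes of S phase together with EFL-1 and DPL-1. The level of lin-35 was 4.87 FPKM in the mutant and 3.39 in N2 (ratio 1.44, interval 1.08 to 1.94), and the authors' deposited table marks its test as failed. The E2F gene efl-1 was at 5.75 and 4.28 FPKM (ratio 1.34, interval 0.903 to 2.02). Its DP partner dpl-1 was at 1.94 and 1.61 FPKM (ratio 1.2, interval 0.710 to 2.1), and the further pair gave 1.70 FPKM and 0. Of these 5 genes, cki-1 alone had an interval above 1.23, so lin-35, efl-1, cki-2 and dpl-1 could not be told from the shift of all measured genes at this depth.

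The mitotic genes had the lowest centred median of the 6 role groups, at -0.49 (deposited scale -0.25), and 7 of 8 were under the measured-gene median. That rank did not hold at a minimum of 5 FPKM, where the deposited-scale median was -0.037, against -0.039 for the licensing genes. Aurora A, which acts at centrosomes, had 9.49 FPKM in the mutant and 13.8 in N2 for air-1 (ratio 0.688, interval 0.527 to 0.892, q = 0.507 in the authors' deposited table). The gene of the checkpoint kinase bub-1 was at 9.89 FPKM in the mutant and 12.1 in N2 (ratio 0.814, interval 0.684 to 0.972). These were the 2 of the 39 genes above 0 in both libraries with an interval below 1. The level of fzy-1, the Cdc20-like activator of the anaphase-promoting complex, was 3.81 and 4.66 FPKM (ratio 0.817, interval 0.554 to 1.17). The Cdh1-like activator fzr-1 was at 9.90 and 9.52 FPKM.

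The chromosomal passenger complex joins the Aurora B kinase AIR-2 to ICP-1 and BIR-1, and its genes did not share a direction. The level of air-2 was 3.61 FPKM in the mutant and 4.76 in N2 (ratio 0.759, interval 0.478 to 1.26), and that of icp-1 was 5.82 and 6.0 FPKM. The survivin-like bir-1 was at 6.67 FPKM in the mutant and 1.87 in N2, from about 35 and 8 fragments. This was the highest ratio of the 39 genes (3.57, interval 1.63 to 8.94) and the only size-rule difference among them (1.42). Its p-value in the authors' deposited table was 0.0185 and its q was 0.229. The transcript of csc-1, the remaining subunit, was listed at 0 in both libraries. The Polo kinase gene plk-1 was at 3.10 FPKM in N2 and listed at 0 in the mutant, the further pair gave 0 and 2.72 FPKM, and the authors' deposited table marks its test as failed.

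**Figure D2:**
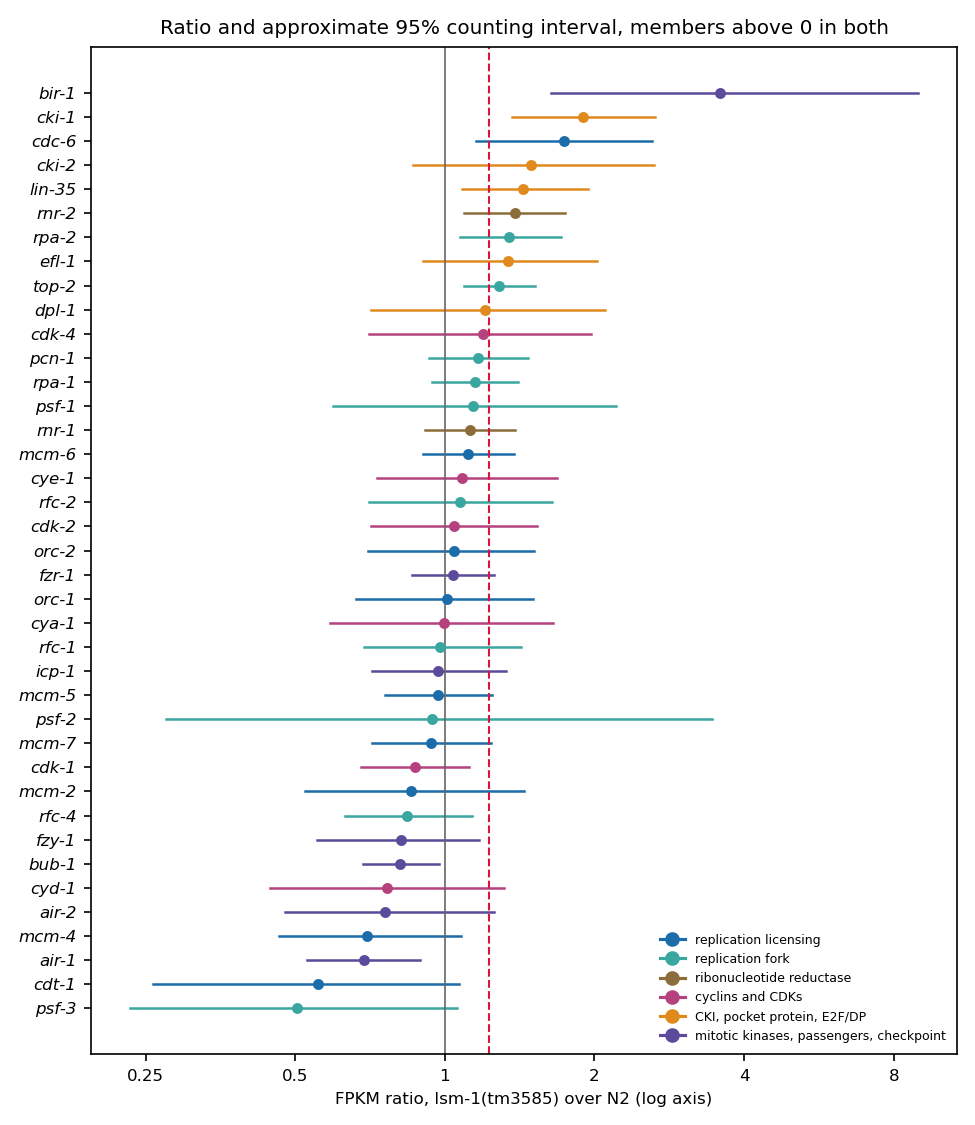
Ratio of FPKM in lsm-1(tm3585) over N2 (log axis) for the 39 genes above 0 in both libraries, in order of the ratio, with approximate 95% counting intervals as bars; the grey line is 1 and the dashed line is 1.23, the median ratio of measured genes. The interval of bir-1 (ratio 3.57) and that of cki-1 (ratio 1.90) lie right of the dashed line, and those of air-1 and bub-1 lie left of the grey line.

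Counted over all 44 genes, the share past the size rule was below that of the table. Higher in the mutant were 4 of 44 (9.09%: mcm-3, cyb-1, cyb-3 and bir-1), against 13.6% of measured genes, and lower were 2 of 44 (4.55%: rfc-3 and plk-1), against 12.2%. Of these 6, 5 are listed at 0 in 1 library and pass the rule by construction. That was so for 5 of 44 (11.4%) against 17.2% of measured genes. Among the 39 genes above 0 in both libraries, 1 was higher (2.56%, bir-1) against 6.51% of such genes in the table, and 0 were lower against 3.86%. In the authors' deposited table, 2 of the 36 genes with a usable test were called higher (5.56%: cyb-1 and cyb-3) against 2.35% of all genes with a usable test, and 0 were called lower against 1.41%. A test is counted as usable where it is marked OK there, which includes rfc-3 with its fold change of 0. At an unadjusted p-value under 0.05 in the authors' deposited table there were 4 of 36 (11.1%: cyb-1, cyb-3, cki-1 and bir-1), against 14.2%. The tests of 6 genes are marked there as failed (mcm-3, mcm-7, rnr-1, rnr-2, lin-35 and plk-1) and those of psf-2 and dpl-1 as having too few data. That test compares the reads of 2 libraries, not the genotypes.

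Most of the 44 transcripts differed little between the libraries, and they lay mostly below the general shift. Of the 39 genes above 0 in both, 34 had a ratio within a factor of 1.5 of 1, and the median ratio was 1.04 with a range from 0.504 to 3.57. The interval held 1 for 30 of them, lay above 1 for 7 (cdc-6, rpa-2, top-2, rnr-2, cki-1, lin-35 and bir-1) and below 1 for 2 (air-1 and bub-1). Against the median ratio of 1.23, 29 intervals held it, 2 lay above (cki-1 and bir-1) and 8 lay below (mcm-4, cdt-1, psf-3, rfc-4, cdk-1, air-1, bub-1 and fzy-1). The share of all measured genes within a factor of 1.5, or with such intervals, was not counted. These counts can therefore not be read as particular to the cell cycle genes. The median difference of the 44 genes was 0.05, or -0.19 after centring, and 32 of 44 (72.7%) were under the measured-gene median. Genes of 1 list share the 2 libraries and are not replicates of them.

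**Figure D3:**
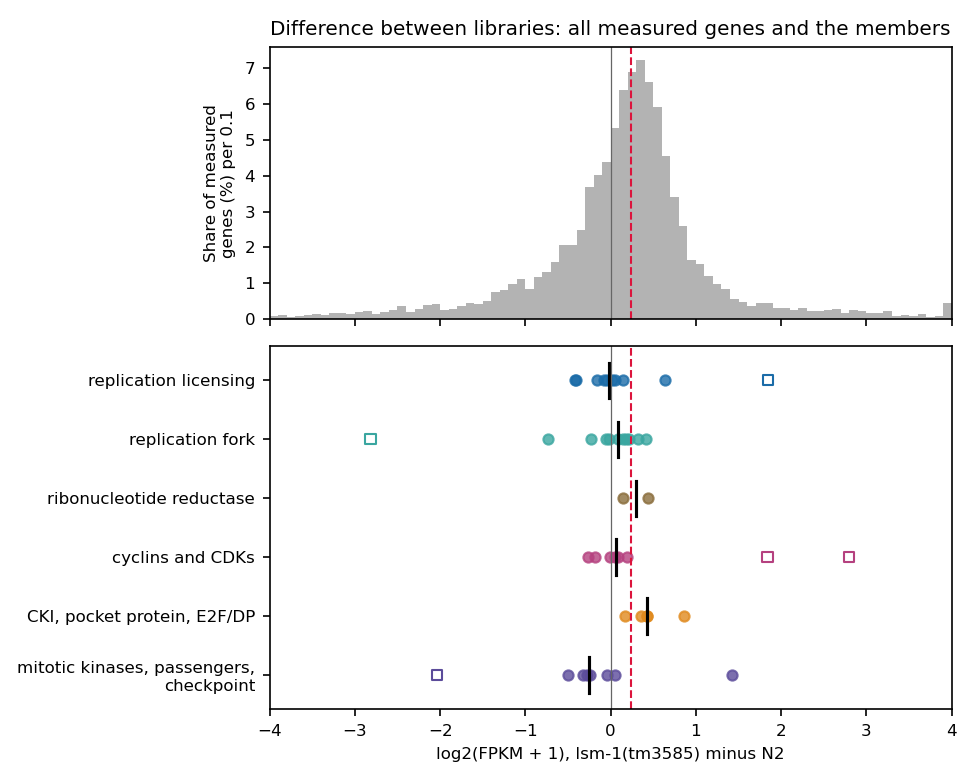
Difference in log2(FPKM + 1), lsm-1(tm3585) minus N2: above, the share of the 14838 measured genes in steps of 0.1 (693 genes beyond 4 in either direction are not drawn); below, the 44 genes by role, with open squares for genes listed at 0 in 1 library and a black bar at each group's median. The dashed line marks 0.24, the median of measured genes; the bar of the CKI, pocket protein and E2F/DP group (0.42) lies right of it and that of the mitotic group (-0.25) lies farthest left.

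The position relative to other genes was as low without the 5 genes listed at 0. Among the 39 genes above 0 in both libraries, 30 were under the measured-gene median, and with genes above 0 in all 4 FPKM columns alone the median of the remaining 35 lay 0.19 below that of all such genes, with 27 of 35 below it. Exons of 13 of the 44 genes overlap those of another protein-coding gene in the WBcel235 annotation, among them mcm-3, rfc-3, lin-35 and rnr-2. Whether the authors counted by strand is not given in the sources used here. The values of these 13 are therefore less certain.

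Further genes of the same pathways were counted in 6 lists with 137 entries, of which 134 were matched and 117 measured. By the size rule 8 of 117 were higher, against 13.6% of measured genes, and 5 were lower, against 12.2%. Of the 105 above 0 in both libraries 1 was higher (the E2F gene efl-2 at 6.18 and 2.49 FPKM), against 6.51%, and 0 were lower, against 3.86%. In the authors' deposited table, 2 of the 106 with a usable test were called higher, against 2.35% of all genes with one, and 2 lower, against 1.41%. The anaphase-promoting complex gene mat-3 (6.27 FPKM in the mutant) and the centriole kinase gene zyg-1 (2.44 FPKM) are listed at 0 in N2. The anaphase-promoting complex gene emb-27 (0.869 FPKM in N2) and the cytokinesis gene ect-2 (1.36 FPKM) are listed at 0 in the mutant. The median difference of the 117 was 0.00, or -0.24 after centring, and 83 of them were under the measured-gene median.

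These lists differed in where they lay. Medians and counts take in genes listed at 0 in 1 library, here 1 DNA damage gene and 3 other replication genes. The lowest and highest genes named are those among genes above 0 in both libraries. The DNA damage checkpoint genes had a centred median of -0.52, with 11 of 12 under the measured-gene median, from the clamp gene hus-1 (1.80 and 3.29 FPKM) to the ATR-like kinase gene atl-1 (3.95 and 3.11 FPKM). Condensin, kinetochore and spindle checkpoint genes had -0.28, with 20 of 23 below, and no gene of this list was past the size rule or called in the authors' deposited table. Its lowest was the Mad2-like mdf-2 at 6.85 FPKM in the mutant and 14.6 in N2, but the further pair gave 6.23 and 9.43 FPKM. The highest of this list was the spindly-like spdl-1 at 4.12 and 2.76 FPKM. The other replication genes had -0.27, with 20 of 27 below, from mcm-10 (0.537 and 1.54 FPKM) to the GINS gene sld-5 (2.57 and 1.06 FPKM, from about 6 and 2 fragments).

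Centrosome, spindle and cytokinesis genes had a centred median of -0.27, with 12 of 18 below. Of the 18, 5 are listed at 0 in 1 library. The others lay between cyk-4 (0.581 and 1.02 FPKM) and the microtubule regulator cls-2 (18.3 and 8.71 FPKM). Anaphase-promoting complex, cohesin and separase genes had -0.09, with 8 of 15 below. Of the 15, 3 are listed at 0 in 1 library. The others lay between such-1 (1.52 and 2.61 FPKM) and the cohesin gene coh-1 (6.02 and 2.73 FPKM). The remaining cyclins, CDC25 and WEE1 enzymes and ubiquitin ligases had -0.03, with 12 of 22 below, between the SCF gene skr-2 (8.22 and 15 FPKM) and efl-2.

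**Figure D4:**
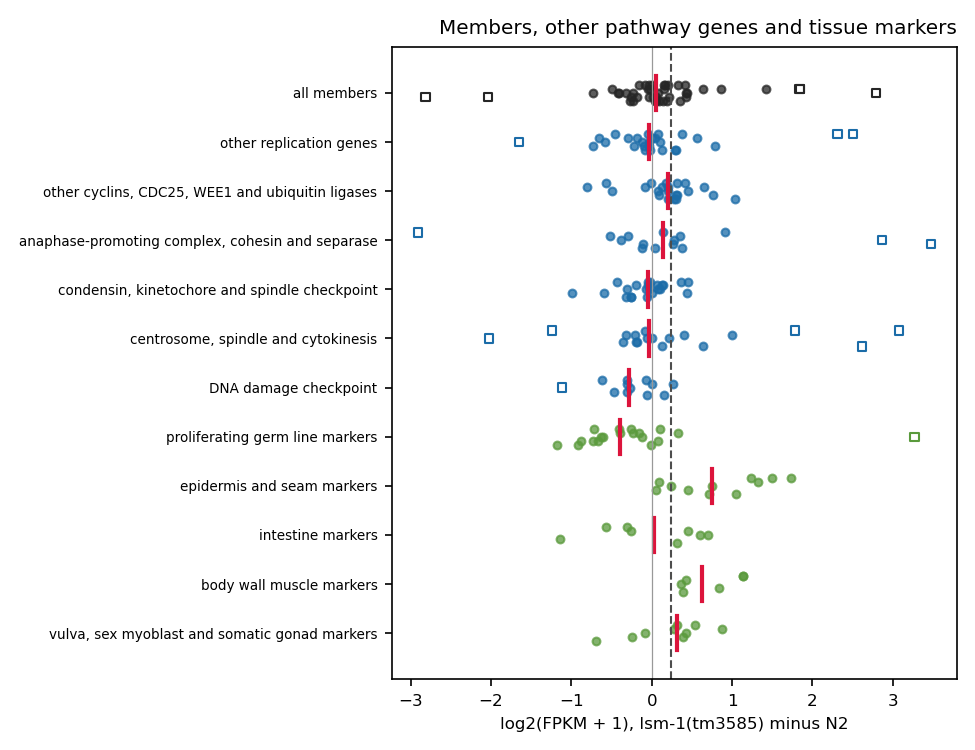
Difference in log2(FPKM + 1), lsm-1(tm3585) minus N2, of each measured gene in the 44-gene set (black), the 6 lists of further pathway genes (blue) and the 5 lists of tissue markers (green); open squares are listed at 0 in 1 library, red bars are medians and the dashed line is the median of measured genes, 0.24. The germ line and DNA damage lists lie mostly left of the dashed line, and the epidermis and body wall muscle lists mostly right of it.

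Tissue markers also differed between the libraries, and their part in the levels of the cell cycle genes was not tested. In RNA from whole larvae, fewer cells of a type and less RNA per cell cannot be told apart. The germ line list was not one of dividing cells alone, since it holds the meiotic genes him-3, htp-3, rec-8, syp-1 and syp-2. Of its 19 measured markers, 17 were under the measured-gene median, and the centred median was -0.63. Their summed level was 75.6 FPKM in the mutant and 93.0 in N2. The mutant sum takes in gld-2, which is listed at 0 in N2. In the authors' deposited table the helicase gene glh-2 (1.02 and 3.56 FPKM) was called lower and gld-2 (8.64 FPKM in the mutant, listed at 0 in N2) higher, while mes-4 was listed at 0 in both libraries. The receptor gene glp-1, which keeps germ cells dividing, was at 2.46 FPKM in the mutant and 3.57 in N2.

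Markers of somatic tissues with dividing cells did not share that direction. Epidermis and seam markers, which are not of the dividing seam cells alone, had a centred median of 0.51. Of these markers, 9 of 11 lay above the median of measured genes, with a summed level of 311 FPKM in the mutant and 188 in N2. The sums take in lin-26 (47.0 and 19.3 FPKM), which the further pair lists at 0 in both libraries. In the authors' deposited table elt-1 (8.05 and 1.73 FPKM), elt-3 (16.6 and 6.06 FPKM) and grd-10 (84.0 and 29.0 FPKM) were called higher. Vulva, sex myoblast and somatic gonad markers had 0.08, with 3 of 9 below and sums of 17.4 and 14.5 FPKM. These sums also take in lin-29, which was under the minimum (0.588 FPKM in the mutant, listed at 0 in N2). The vulval and sex myoblast genes egl-17 and egl-15 were listed at 0 in both libraries. The measured genes of this list ranged from lin-12 (1.94 and 3.74 FPKM) to hlh-8 (2.29 and 0.791 FPKM). The value of hlh-8 rests on about 16 and 5 fragments, and its interval from 0.917 to 9.14 holds 1. The notch-like lin-12 and the sex myoblast gene hlh-8 therefore lay at opposite ends.

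Markers of tissues whose cells have mostly stopped dividing lay on either side. Intestine markers had a centred median of -0.21, with 4 of 8 below and sums of 346 and 309 FPKM, from mtl-2 (26.3 and 59.0 FPKM) to pept-1 (14.4 and 8.45 FPKM), and ges-1 was listed at 0 in both libraries. All 6 measured body wall muscle markers lay above the measured-gene median (centred median 0.39), with sums of 765 and 561 FPKM, from unc-27 (174 and 135 FPKM) to hlh-1 (5.71 and 2.04 FPKM). Of that list unc-15, lev-11, unc-89 and unc-22 were listed at 0 in both libraries.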

How the data were processed

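The authors deposited 1 table of FPKM values per gene for 2 libraries, with a log2 fold change, a p-value and a q-value from their own test. TopHat, Cufflinks and Cuffdiff are named, without versions, per the submitters' processing notes. The build behind the table is not given in the sources used here. Coordinates are therefore left out. The FPKM pair beside the authors' test was used. A further deposited FPKM pair, lower by a factor of 1.14 in both libraries, served as an alternative.

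Differences were computed as log2(FPKM + 1), with a minimum of 1 FPKM in either library (Python 3.11.15, pandas 2.3.3, numpy 2.4.6, scipy 1.17.1, matplotlib 3.10.9). The members and lists were chosen with earlier results of these data known. Symbols were resolved through RefSeq and Ensembl release 115 annotation of WBcel235. The row with the deposited symbol psf-1 is F25B5.7, which RefSeq names nono-1 (27.7 and 20.0 FPKM), and it was left out in favour of R53.6. Depth was estimated from 3255 low genes with 1 transcript of 700 to 2000 nt, a step checked on simulated data. The simulation used the same transcript lengths as the estimate, so it does not check those lengths. Of their ratios between the libraries, 40.4% fell within 0.5% of 0.819 times a fraction made of small integers. After random shifts of the ratios it was 6.82%.

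Every member is accounted for. Of the other lists the text names genes past the authors' test and the highest and lowest difference above 0 in both libraries. The genes cyb-2.1, cyb-2.2, csc-1, glp-1, lin-26, lin-29, orc-4 and orc-5 were named after their values were seen. So were the meiotic genes of the germ line list and the tissue markers listed at 0 in both libraries. Alternatives covered the pseudocount, the filter, the FPKM pair, values at 0, scaling and the threshold.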

Additional observations from a re-analysis of the deposited data

How the results depend on the processing

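With 1 library per genotype there is no replicate to leave out, and no paired analysis was possible because the groups share no replicate pairs. None of the genes past the size rule or the authors' test changed sign under any alternative that gave it a value. The median difference of the 44 genes was 0.05 as deposited, -0.19 after centring and -0.053 when the FPKM of each library were scaled to equal sums, so its sign depends on the scaling. Relative to all measured genes under the same setting it lay between 0.18 and 0.22 below, except without a filter on low values, where 46135 genes with a median of 0 enter and it lay 0.05 above. Past the size rule, 4 genes were higher and 2 lower, against 2 and 1 with a minimum of 5 FPKM, 1 and 0 when a value above 0 was required in all 4 FPKM columns, and 6 and 3 at 1.5-fold. The further FPKM pair also gave 4 and 2, but with dpl-1 (1.43) in place of cyb-1 and cyd-1 (-1.60) in place of rfc-3. These counts were 3 and 1 without the members whose exons overlap another coding gene, an alternative chosen after seeing the data, as was taking members by symbol alone. Past the test in the authors' deposited table, 2 genes were called higher, against 4 with an unadjusted p-value under 0.05 and 0 when a value above 0 was required in every FPKM column. A minimum of 5 FPKM kept 2 of the 8 cyclin and kinase genes, cdk-1 and cyb-3, and moved the median of that role group from 0.07 to 1.3. The same minimum moved the mitotic median from -0.25 to -0.037, just above the -0.039 of the licensing genes. Depth limits the genes with few fragments, such as psf-2, psf-3 and bir-1.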

Other observations

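The origin genes orc-1 and orc-4, neighbours on the same strand of chromosome III in the WBcel235 annotation, were at 3.26 and 3.21 FPKM in the mutant and 3.23 and 3.10 FPKM in N2. On chromosome IV, cyb-1 and orc-5 lie next to each other on opposite strands. The level of orc-5 was 1.71 FPKM in the mutant and 3.06 in N2, while cyb-1 was at 2.58 FPKM in the mutant and listed at 0 in N2, and the further FPKM pair lists cyb-1 at 0 in both libraries.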
